A study of Mus musculus with 2 samples.

Results

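The genes described here build the synaptonemal complex and the chromosome axis of meiosis. They were taken as a named list of 10 genes (Sycp1, Syce1, Syce2, Syce3, Tex12, Sycp2, Sycp3, Hormad1, Stag3 and Smc1b) out of 21887 protein-coding genes in the RefSeq table of GRCm38.p6, the assembly also called mm10. All 10 were found in that table by symbol. Peaks of the DNA-binding protein DPPA2 were assigned to a gene by the position of their summit, which lay within 1 kb of either gene end, inside the gene, or up to 50 kb outside it.

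Binding was mapped by ChIP-seq, in which DNA bound to a protein is pulled down with an antibody and sequenced. The cells were R1/E, a mouse embryonic stem cell line with wild-type p53, kept on gelatin in medium with serum and leukemia inhibitory factor. Cells given adriamycin for 8 h gave 1 library and untreated cells gave 1 library. Adriamycin (doxorubicin) traps topoisomerase on DNA and causes breaks, and the design asks where DPPA2 is bound after this damage. The labels put WT in the genotype field of the untreated sample and the treatment in that of the treated sample; the series text gives p53+/+ for both. With 1 library in each group there was no test between them, and every difference below is between those libraries. ChIP from bulk cells does not tell apart stronger binding in each cell and binding in more of the cells.

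During meiotic prophase, each chromosome is organised as loops along a protein axis, and the axes of homologous chromosomes are then zipped together by the synaptonemal complex. SYCP1 forms the transverse filaments of the zipper, SYCE1, SYCE2, SYCE3 and TEX12 its central element, SYCP2 and SYCP3 the axial cores, and HORMAD1 marks axes that are not yet zipped. STAG3 and SMC1B are subunits of the cohesin complexes of germ cells, on which the axis is built. In mouse embryonic stem cells most of these genes are silent, and promoters of germline genes are known targets of DNA methylation and of a Polycomb complex that contains E2F6 and MGA. DPPA2, with its partner DPPA4, is known to occupy CpG-rich promoters in these cells and to keep a set of them free of DNA methylation, and Syce1 is among the genes described as depending on it.

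The promoters of the 5 genes with a DPPA2 peak at their start are printed first, because the calls at these starts are described next. Each is the 250 bases before the annotated start that lies farthest upstream, in the direction of transcription, from RefSeq (GRCm38.p6). They lie at chr7:140787855-140788104 (Syce1, minus strand), chr2:178407659-178407908 (Sycp2, minus strand), chr10:88459337-88459586 (Sycp3, plus strand), chr9:50561269-50561518 (Tex12, minus strand) and chr3:95559427-95559676 (Hormad1, plus strand). Capitals mark each CACGTG, the E-box that MGA-type factors bind, and each GCGGGA, a core of E2F-type sites, searched on both strands; the marked matches do not overlap.
Syce1: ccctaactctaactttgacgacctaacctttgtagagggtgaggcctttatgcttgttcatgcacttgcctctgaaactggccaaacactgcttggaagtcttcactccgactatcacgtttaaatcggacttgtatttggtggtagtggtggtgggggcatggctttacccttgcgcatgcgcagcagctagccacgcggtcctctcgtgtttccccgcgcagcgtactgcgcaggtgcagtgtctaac
Sycp2: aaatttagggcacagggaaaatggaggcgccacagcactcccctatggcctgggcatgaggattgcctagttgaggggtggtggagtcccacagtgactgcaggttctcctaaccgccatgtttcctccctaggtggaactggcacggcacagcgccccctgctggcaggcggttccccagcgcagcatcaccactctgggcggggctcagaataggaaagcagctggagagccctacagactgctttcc
Sycp3: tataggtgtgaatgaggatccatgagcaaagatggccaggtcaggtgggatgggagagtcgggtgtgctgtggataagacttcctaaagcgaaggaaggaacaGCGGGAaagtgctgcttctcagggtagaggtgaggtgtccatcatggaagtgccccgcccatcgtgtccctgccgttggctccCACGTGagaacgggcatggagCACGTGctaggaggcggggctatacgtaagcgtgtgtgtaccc
Tex12: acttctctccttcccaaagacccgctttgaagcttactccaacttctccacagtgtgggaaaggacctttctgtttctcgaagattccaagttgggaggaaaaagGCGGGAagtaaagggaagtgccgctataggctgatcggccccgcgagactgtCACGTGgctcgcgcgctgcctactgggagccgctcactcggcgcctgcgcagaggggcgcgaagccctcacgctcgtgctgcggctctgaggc
Hormad1: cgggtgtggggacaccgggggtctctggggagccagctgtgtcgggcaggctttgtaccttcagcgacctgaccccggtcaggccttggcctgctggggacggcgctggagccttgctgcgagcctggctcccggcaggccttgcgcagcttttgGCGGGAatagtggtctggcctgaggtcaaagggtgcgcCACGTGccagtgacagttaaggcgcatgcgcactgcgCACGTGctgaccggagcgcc

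Of these letters, the DPPA2 peak itself covered 173 bases at Hormad1 and 60 bases at Tex12, both peaks of the untreated list. The peaks at Syce1, Sycp3 and Sycp2, all of the adriamycin list, lay downstream of the printed letters, at 31, 131 and 226 bp from them. Summits lay downstream of the start at 4 genes and upstream at 1, Hormad1. An E-box and a GCGGGA stood together in 3 of the 5 printed promoters (Sycp3, Tex12 and Hormad1), and Sycp3 and Hormad1 held 2 E-boxes each.

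DPPA2 peaks were called at the start of 5 of the 10 genes, and no gene had such a peak in both libraries. Over all protein-coding genes 4.51% had a gene-end peak in both lists, so none among 10 genes is near that share. Syce1, Sycp2 and Sycp3 had one in the adriamycin list alone, and Tex12 and Hormad1 in the untreated list alone. The adriamycin count was 3 of 10 genes (30.0%, exact Clopper-Pearson 95% interval 6.67 to 65.2%), where 16.0% of all protein-coding genes had a gene-end peak. The untreated count was 2 of 10 (20%, 2.52 to 55.6%), where 5.78% of all genes had one. Both intervals hold the share of all genes, so at this number of genes the counts could not be told from it. Over all genes with a gene-end peak, 71.9% of those called with adriamycin and 22.0% of those called untreated were absent from the other list. Counted at annotated starts, the same 3 and 2 genes stood beside 15.8% of genes with adriamycin and 5.91% untreated.

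**Figure D1:**
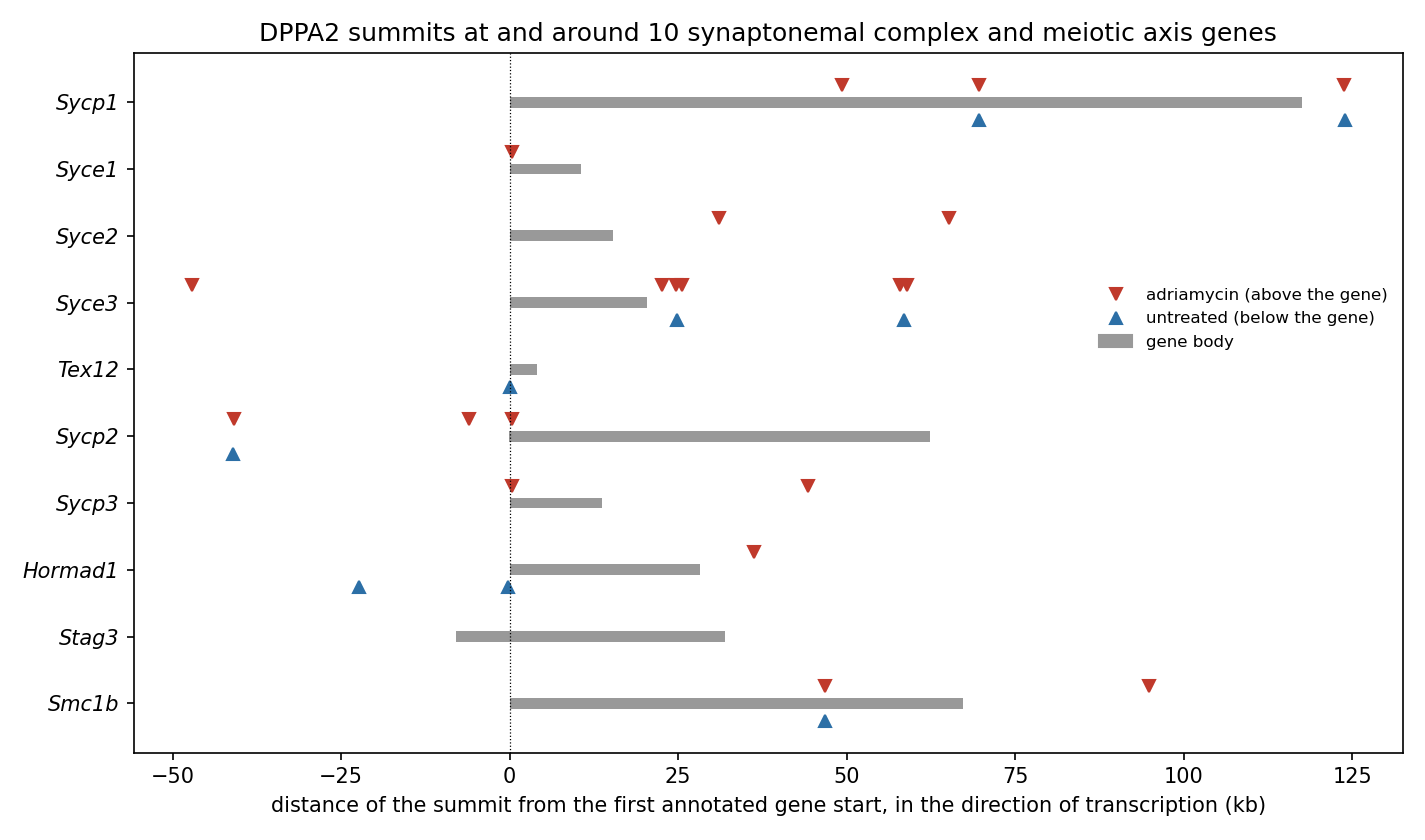
Position of every DPPA2 summit assigned to the 10 genes, as distance in kb from the first annotated start in the direction of transcription; grey bars are the genes, red triangles above them adriamycin summits and blue triangles below them untreated summits. Peaks at the start stand in red at Syce1, Sycp2 and Sycp3 and in blue at Tex12 and Hormad1, and Stag3 has none.

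Among the central element genes, Syce1 (chromosome 7, 140777229 to 140787854) had the start peak with the most fragments. SYCE1 is a central element protein that binds SYCP1. Its adriamycin peak at 140787330 to 140787824 had its summit 337 bp downstream of the start, with 14 fragments at the summit (exact Poisson 95% interval 7.65 to 23.5). The fold, which is the authors' caller's ratio of summit over local background, was 5.28, with a −log10 q of 5.49. In the untreated list the nearest summit lay 133409 bp from this summit.

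Tex12 (chromosome 9, 50557148 to 50561268), a small gene whose product pairs with SYCE2 in the central element, was the other way round. Its untreated peak at 50560917 to 50561328 had a summit 89 bp downstream of the start, with 10 fragments (4.80 to 18.4), a fold of 4.58 and a −log10 q of 3.16. In the adriamycin list the nearest summit lay 55819 bp from an end of the gene. The table places this untreated summit inside Il18, an interleukin gene, as well as in Tex12.

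Among the axis genes, Sycp2 and Sycp3, whose products form the axial cores together, had start peaks in the adriamycin list alone. The peak of Sycp2 (chromosome 2, 178345295 to 178407776) at 178407234 to 178407433 had a summit 310 bp downstream of the start, with 8 fragments (3.45 to 15.8) and a fold of 4.44. The peak of Sycp3 (chromosome 10, 88459587 to 88473236) at 88459717 to 88459916 had a summit 271 bp downstream of the start, with 10 fragments (4.80 to 18.4) and a fold of 4.51. Both were 200 bp wide, the smallest width in either list, which 11.2% of adriamycin peaks had. Their −log10 q were 2.87 for Sycp2 and 3.37 for Sycp3, ranks 14262 and 13051 of 16229 adriamycin peaks. The nearest untreated summits were 41281 bp from the Sycp2 summit and 272036 bp from the Sycp3 summit.

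Hormad1 (chromosome 3, 95559677 to 95587863) encodes a HORMA-domain protein of unpaired axes that is removed as chromosomes synapse. Its untreated peak at 95559122 to 95559599 was the only start peak among the 10 genes with a summit upstream of the start, by 256 bp. It held 12 fragments (6.20 to 20.96), with a fold of 4.92 and a −log10 q of 4.11. The nearest adriamycin summit lay 8076 bp beyond the far end of the gene, inside Golph3l.

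These start peaks were ordinary or weak within their own lists. The median fold was 5.10 with adriamycin and 5.16 untreated, and 4 of the 5 start peaks lay below the median of their list, with Syce1 above it. The median summit held 14 fragments in each list. Absence from a list leaves room for signal below the threshold. At a local background like that of Syce1 (within 0.1 times the genome-wide value), the lowest summit listed in the untreated library held 9 fragments, against 14 at Syce1 with adriamycin. The corresponding lowest untreated summits were 7 fragments for Sycp2, against its 8 with adriamycin, and 8 fragments for Sycp3, against its 10 with adriamycin. For Tex12 and Hormad1 the lowest adriamycin summit was 7 fragments, where the untreated peaks held 10 and 12 fragments. Scaled by the genome-wide backgrounds to the library with the peak, these lowest summits came to 7.76 fragments for Syce1, 6.03 for Sycp2, 6.89 for Sycp3 and 8.12 for Tex12 and for Hormad1. The level in the other library at these starts is not in the lists, so presence in a single list does not measure a difference in level.

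**Figure D2:**
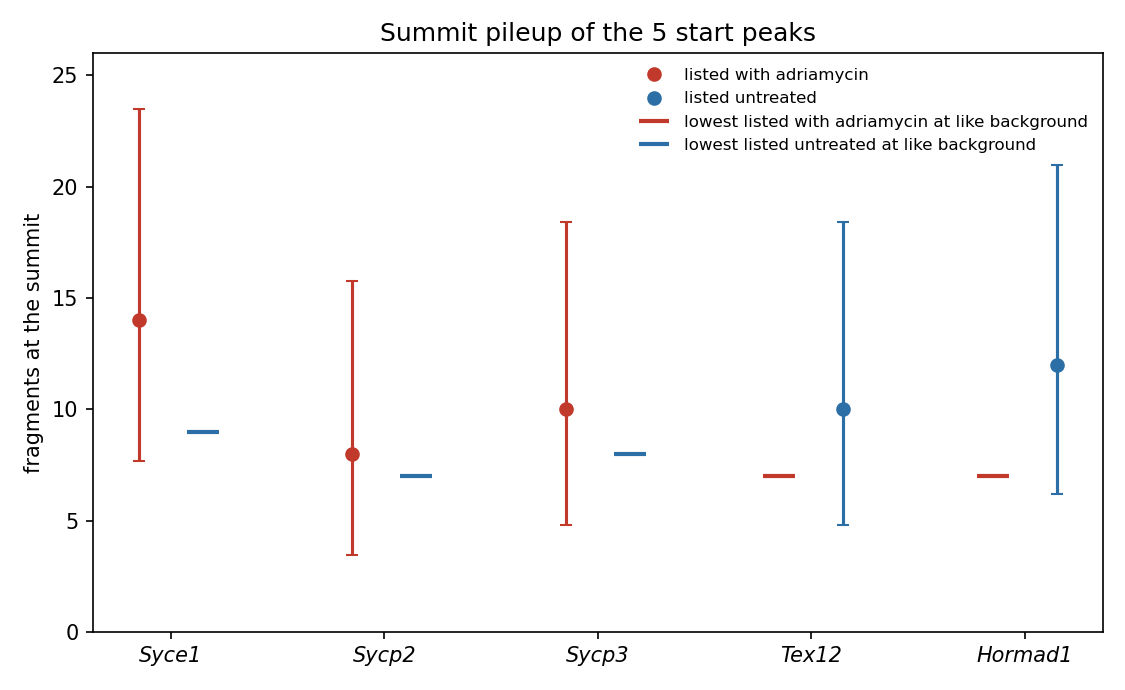
Fragments at the summit of each start peak (points, with exact Poisson 95% intervals) in the library that lists it, red for adriamycin and blue for untreated, with bars for the lowest summit that the other list holds at a like local background. The point and the bar stand closest at Sycp2, with 8 fragments with adriamycin against a bar of 7 untreated, and are 14 and 9 at Syce1; the level in the other library itself is not known.

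The calls at these starts depended on the threshold. Under a stricter limit, either q no higher than 1e-05 or fold no lower than 5, Syce1 was the remaining start call with adriamycin and there was none in the untreated list. Over all genes the share with a gene-end peak was then 7.12% with adriamycin and 2.10% untreated at the stricter q, and 6.94% and 2.14% at the stricter fold, so fewer genes were called throughout. When the adriamycin list was limited to its strongest 7043 peaks, as many as the untreated list holds, no start call was left with adriamycin, against 2 untreated, where 5.73% and 5.78% of all genes had a gene-end peak. At such shares a count of 0 among 10 genes is near the background. The Syce1 peak, at a −log10 q of 5.49, was just short of the 5.55 that this length required.

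All 5 peaks lay at the start and none at the far end of the gene. Over all genes with a gene-end peak and a known start, 85.8% (84.4 to 87.1%) with adriamycin and 84.8% (82.4 to 86.9%) untreated had a summit within 1 kb of an annotated start.

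Inside genes, DPPA2 peaks were called in Sycp1 and Smc1b, and in both of these genes a peak recurred in both libraries at nearly the same position. Thus 2 of 10 genes had an inside peak in each list, against 17.9% of all genes with adriamycin and 8.16% untreated. The share of all genes with an inside peak in both lists is not given here. Of the whole untreated list 79.7% of peaks overlapped an adriamycin peak, so recurrence is not a trait of these 2 genes. Neither gene had a peak at its start.

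Sycp1 (chromosome 3, 102818499 to 102936100) encodes the transverse filament protein. A peak 69602 bp downstream of its start, at 102866275 to 102866662, had 15 fragments (8.40 to 24.7) and a fold of 7.02 with adriamycin. Its untreated counterpart at 102866311 to 102866655 had 16 fragments (9.15 to 25.98) and a fold of 7.08, with a summit 11 bp away. The adriamycin list held another Sycp1 peak at 102886708 to 102887056, with 14 fragments (7.65 to 23.5) and a fold of 6.58, and no untreated peak overlapped it. A further peak lay beyond the far end of Sycp1, inside no other protein-coding gene, with 15 fragments in each library and folds of 6.30 with adriamycin and 6.40 untreated. The Sycp1 locus thus carried recurrent peaks in the gene body and past the gene's far end.

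Smc1b (chromosome 15, 85064689 to 85131957) encodes the germ-cell form of the SMC1 cohesin subunit. Its inside peak, 46763 bp downstream of the start, had the highest fold of all peaks assigned to the 10 genes. It was called at 85085040 to 85085384 with adriamycin, with 19 fragments (11.4 to 29.7) and a fold of 8.70. The untreated peak at 85085128 to 85085327 had 14 fragments (7.65 to 23.5) and a fold of 5.43, with a summit 2 bp away. The table also places this position inside Fam118a, a neighbouring gene that overlaps Smc1b, so the peak cannot be given to Smc1b alone. Stag3 (chromosome 5, 138272514 to 138312397), which encodes a subunit of the same germ-cell cohesin complexes as SMC1B, had no summit within 50 kb in either list. The nearest lay 61570 bp from an end of Stag3 with adriamycin and 191035 bp untreated.

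Farther out, most peaks lay in or at neighbouring genes. Of the summits up to 50 kb outside a gene, 13 of 14 with adriamycin and 4 of 5 untreated lay inside or at an end of another protein-coding gene. The surroundings of Syce3 alone supplied 6 of the adriamycin and 2 of the untreated summits. The same share over all genes is not given here, so these counts are not a trait of the 10 genes. Syce2 (chromosome 8, 84872111 to 84887446), a central element gene, had no peak of its own. Its adriamycin summits lay 15640 bp away inside Klf1, an erythroid transcription factor gene, and 49781 bp away inside Mast1, with 16 and 21 fragments, while untreated summits came no closer than 274736 bp to an end of Syce2. Around Syce3 (chromosome 15, 89390174 to 89410503), another central element gene, there were 6 adriamycin and 2 untreated summits, all within Klhdc7b, Lmf2 or Mapk8ip2. The strongest, inside Klhdc7b and past the far end of Syce3, had 32 fragments (21.9 to 45.2) and a fold of 6.07 with adriamycin, and 26 fragments (17.0 to 38.1) and a fold of 5.74 untreated. Its local background was 4.32 times the genome-wide value with adriamycin, the highest of all peaks assigned to the 10 genes, and 3.10 times untreated. Near Sycp3, an adriamycin peak lay 30536 bp away at an end of Chpt1, with 21 fragments and a fold of 7.97. Upstream of Sycp2, an adriamycin peak at 178413302 to 178413690 lay within 1 kb of ends of both Ppp1r3d and Fam217b, with 12 fragments and a fold of 4.14, and no untreated peak overlapped it. Around Hormad1, the adriamycin summit in Golph3l had 11 fragments and a fold of 5.00, and an untreated summit 22362 bp upstream inside Ctss had 13 fragments and a fold of 4.76. Beyond the far end of Smc1b, an adriamycin peak at an end of Fam118a had 10 fragments and a fold of 3.57, the lowest fold among the adriamycin peaks assigned to the 10 genes. None of the peaks in Ppp1r3d, Golph3l and Ctss or at Fam118a had a counterpart in the other list.

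In all, 8 of the 10 genes had an adriamycin summit at an end, inside or within 50 kb, where 66.6% of all genes had one, and 6 of 10 had an untreated one, where 36.4% did. Both lists held one for 5 genes (Sycp1, Syce3, Sycp2, Hormad1 and Smc1b), where 34.1% of all genes did. At the edge of the 50 kb limit, adriamycin summits at 47199 bp from Syce3 (fold 4.98) and 49781 bp from Syce2 (fold 5.88) were counted. Adriamycin summits at 53498 and 54424 bp from Syce3 (folds 4.26 and 4.55) were not. Nor were those at 55819 bp from Tex12 (fold 5.51) and 59808 bp from Sycp1 (fold 3.70). An untreated summit at 53616 bp from Syce3 (fold 3.53) was also left out.

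Peaks present in both lists were counted among those assigned to the 10 genes. Of 20 adriamycin peaks assigned to the 10 genes, 5 (25.0%, 8.66 to 49.1%) overlapped an untreated peak, against 34.4% of the whole adriamycin list. Of 9 untreated peaks, 5 (55.6%, 21.2 to 86.3%) overlapped an adriamycin peak, against 79.7% of the whole untreated list. None of these 5 pairs lay at a gene end. The share of all overlapping peaks at gene ends is not given here, so their places are not a trait of the 10 genes. Scaled to the genome-wide background of each library, the summit of the Smc1b pair was 1.57 times as high with adriamycin as untreated (counting interval 0.749 to 3.39). The ratio was 1.43 (0.825 to 2.495) for the Syce3 pair in Klhdc7b, 1.16 (0.529 to 2.55) for the outer Sycp1 pair, 1.09 (0.501 to 2.35) for the inner one, and 1.06 (0.425 to 2.63) for the pair near Sycp2 inside Cdh26. All 5 intervals included 1, and the median over 5574 pairs of the whole lists was 1.31 (quartiles 1.07 and 1.58).

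**Figure D3:**
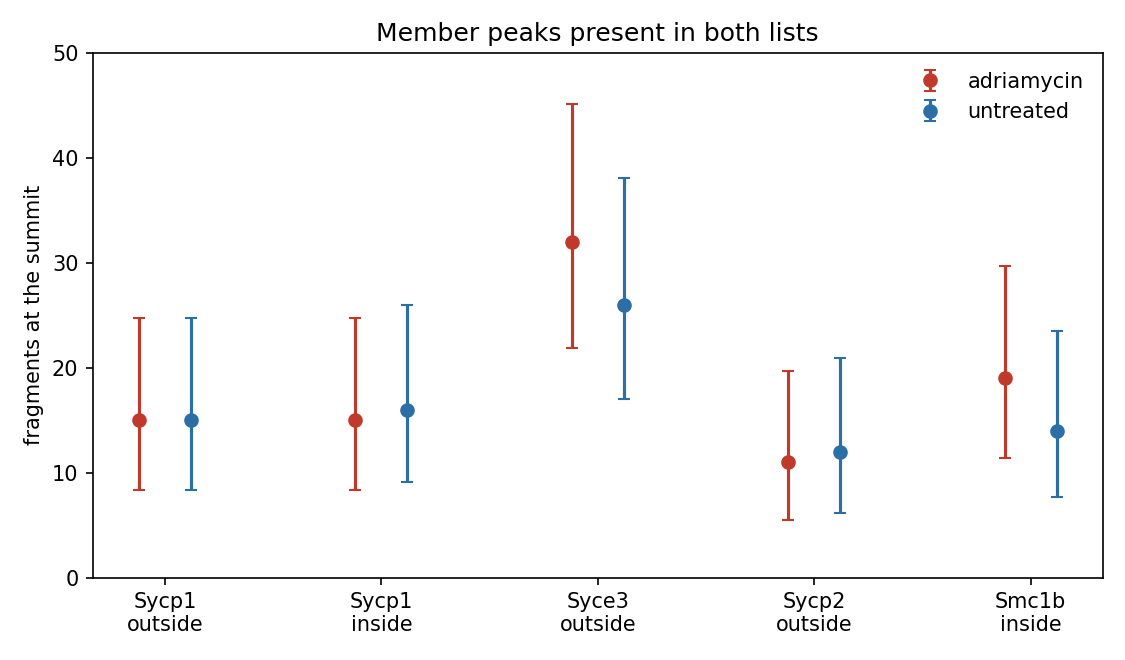
Fragments at the summit, with exact Poisson 95% intervals, of the 5 peaks assigned to the 10 genes that overlap between the lists, adriamycin in red left of untreated in blue; "inside" and "outside" say where the peak lies relative to the named gene. The intervals of the libraries overlap in each pair, with 32 and 26 fragments at the strongest pair, near Syce3.

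The promoters held more CpG than the median promoter at 8 of the 10 genes. A window was found for all 10 genes and for 17492 of the 21887 protein-coding genes, which had a median of 10 CpG in the 250 bases before the start (quartiles 3 and 19). The CpG counts were 13 for Syce1, 7 for Sycp2 and 12 for Sycp3, with start peaks in the adriamycin list, and 20 for Tex12 and 19 for Hormad1, with start peaks in the untreated list. Stag3 with 26 CpG and Smc1b with 25 were the richest of the 10 and had no start peak in either list. The annotated start used for Stag3, at 138280509, lies inside the gene span, which begins at 138272514. Its window is therefore not at the gene end. The others without one were Sycp1 with 17, Syce2 with 11 and Syce3 with 5. Over all genes the share with a start peak was higher in CpG-richer classes. It was 2.73% (2.33 to 3.18%) with adriamycin and 1.24% (0.975 to 1.56%) untreated for promoters of 0 to 4 CpG. For promoters of 20 or more it was 33.1% (31.7 to 34.6%) with adriamycin and 12.1% (11.1 to 13.1%) untreated. That class holds Tex12, Stag3 and Smc1b, and most of its promoters had no start peak in either list. In the class of 10 to 14 CpG, which holds Syce1, Sycp3 and Syce2, the shares were 15.9% with adriamycin and 5.50% untreated.

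**Figure D4:**
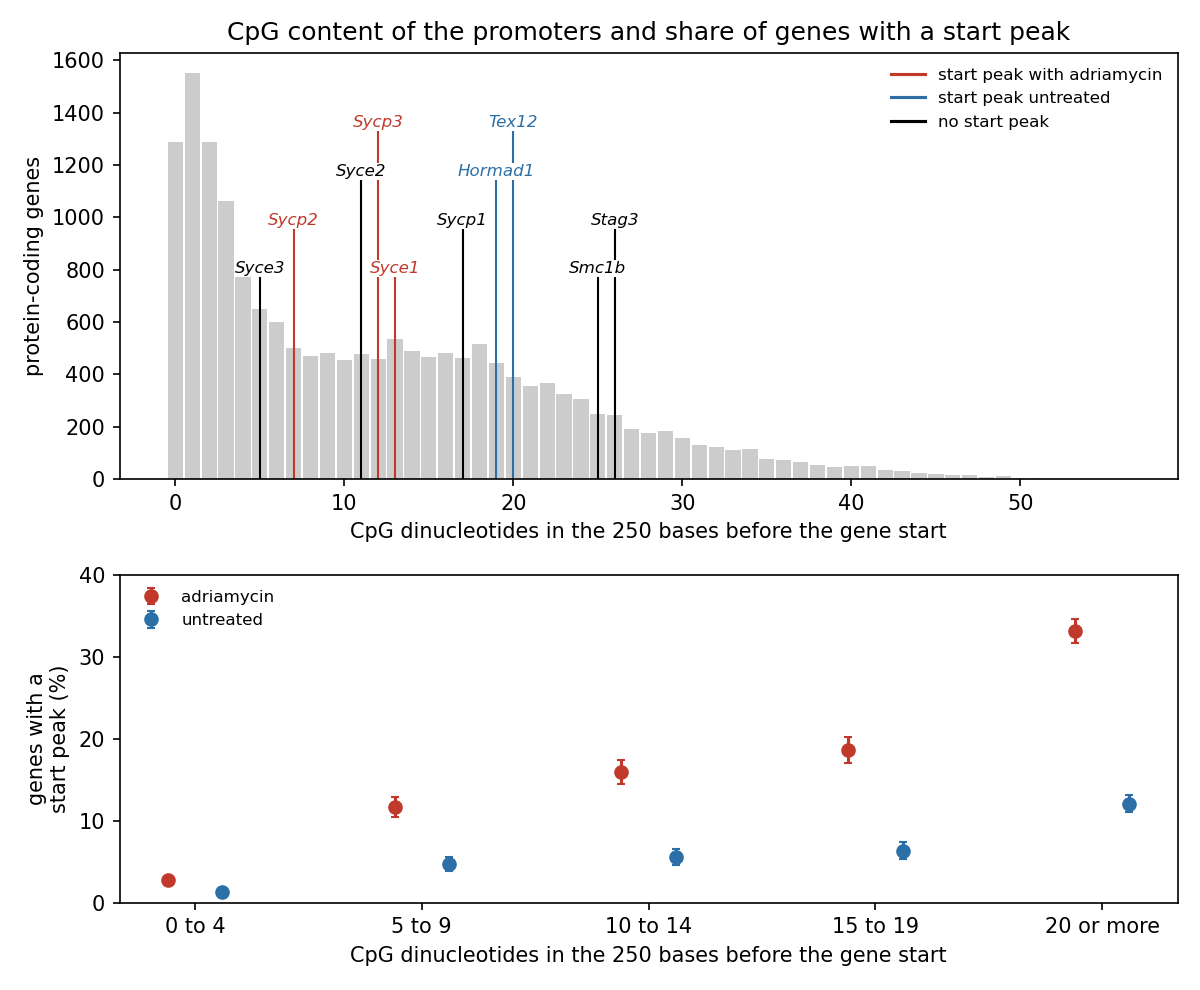
Upper panel, number of protein-coding genes by CpG count in the 250 bases before the start, with the 10 genes marked in red (start peak with adriamycin), blue (start peak untreated) or black (none). Lower panel, share of genes with a start peak by CpG class in each library with exact 95% intervals, 33.1% with adriamycin and 12.1% untreated at 20 or more; Stag3 and Smc1b, at 26 and 25, have none.

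The E-box CACGTG was present in the promoters of 5 of the 10 genes (Sycp1, Tex12, Sycp3, Hormad1 and Stag3), against 6.65% of all 17492 promoter windows. GCGGGA was present in 5 (Syce2, Tex12, Sycp3, Hormad1 and Smc1b), against 21.6%. Both stood together in 3 genes, against 1.98% of all promoters, and these 3 are among the printed sequences. Of these 3 genes, Sycp3 had its start peak with adriamycin and Tex12 and Hormad1 had theirs untreated. Whether the motifs go with the library was not tested. The Syce1, Sycp2 and Syce3 windows held neither. Both motifs contain a CpG, and the shares of all promoters were not matched for CpG count. These matches describe letters and do not show that a factor is bound.

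Gene-end peaks at other genes of the meiotic pathway were counted next. Of 51 further genes, 50 were found in the table (Speedya was not matched), and 3 of them (6.0%, 1.25 to 16.5%) had a gene-end peak with adriamycin and 1 (2.0%, 0.0506 to 10.6%) untreated, against 16.0% and 5.78% of all genes. Both intervals hold the share of all genes. With a window of 2500 bp the counts were 7 with adriamycin and 5 untreated. The share of all genes at that window is not given here, so those counts cannot be set against 16.0% and 5.78%. Counted within 1 kb of an annotated start, the pathway genes with a peak were 4 with adriamycin and 1 untreated. Of all genes with an annotated start, 15.8% and 5.91% had one. Genes are named below by the gene-end count, so genes counted only by an annotated start are not named. The Top6bl peak named below lay 73149 bp from the nearest annotated start and is not part of the start count. Among 8 other axis and synaptonemal complex genes, Six6os1, whose product binds SYCE1 in the central element, had a start peak in both lists. It had 12 fragments (6.20 to 20.96), a fold of 5.20 and a summit 208 bp downstream of the start with adriamycin, and 13 fragments (6.92 to 22.2), a fold of 5.00 and a summit 289 bp downstream untreated. Six6os1 was thus called in both libraries where its partner gene Syce1 was called with adriamycin alone. Among 9 general cohesin genes, Pds5a, a regulator of cohesin release, had one with adriamycin, with 20 fragments (12.2 to 30.9) and a fold of 6.56, and none of the 9 had one untreated.

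Among 24 meiotic recombination genes, 1 had a gene-end peak with adriamycin and 0 untreated. The peak of that gene, Top6bl, the partner of the SPO11 enzyme that cuts DNA in meiosis, had 14 fragments and a fold of 4.66. It lay at the far end of the gene, within 1 kb of an end of Rce1. None of 5 telomere attachment genes and none of 4 meiotic entry genes had a gene-end peak in either list.

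**Figure D5:**
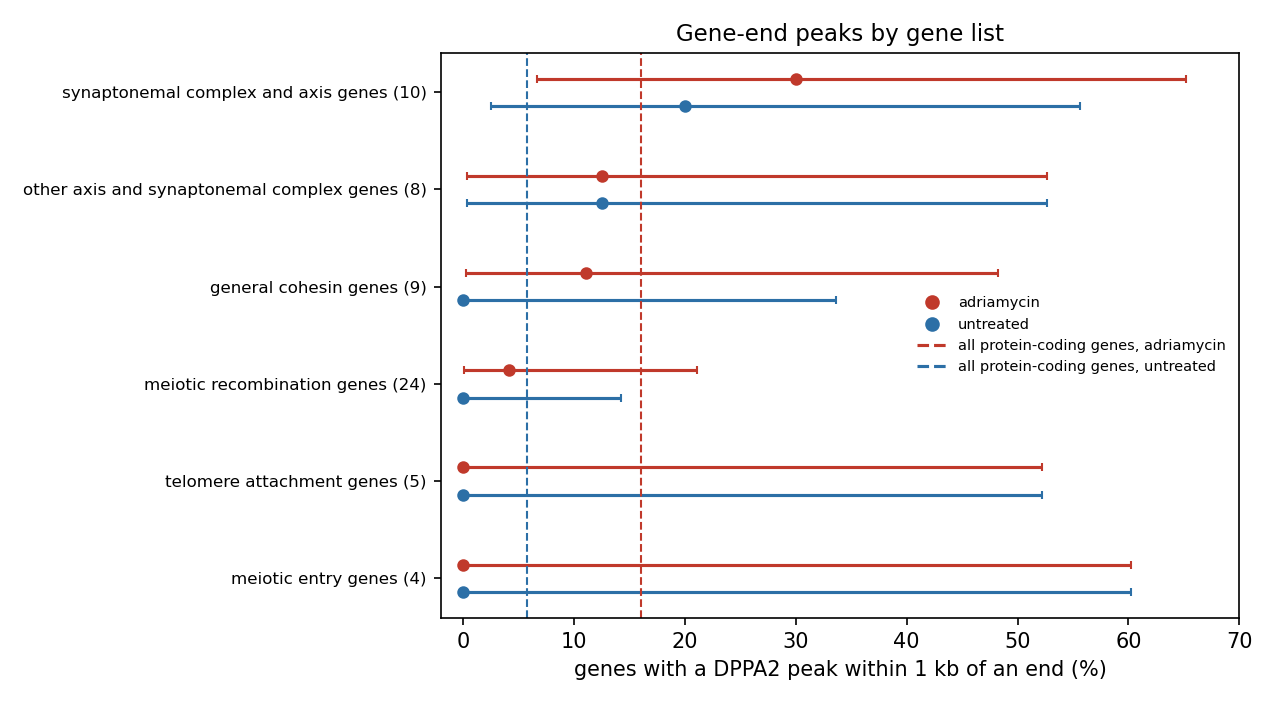
Share of genes with a DPPA2 peak within 1 kb of an end in each gene list (number of genes in brackets), adriamycin in red above untreated in blue, with exact 95% intervals; dashed lines give the share of all protein-coding genes, 16.0% with adriamycin and 5.78% untreated. The synaptonemal complex and axis genes stand at 30.0% with adriamycin and 20% untreated, with intervals that cross the dashed line of their library.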

How the data were processed

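DPPA2 ChIP-seq peaks were analysed from 1 adriamycin and 1 untreated library of R1/E cells, grouped by title and treatment label. The submitters' processing notes name Bowtie2 2.5.1, SAMtools, MACS3 3.0.0b1, deepTools 3.5.1, FastQC 0.12.1 and build mm10. No source used here gives the calling command, the filters or whether an input control was used. The deposited peak lists, 1 per library, give a fold (a ratio of summit over local background, the authors' value), −log10 p and −log10 q values, a score and the distance to the summit. Whether that background was taken from the same library or from an input is not known. The deposited score was not used, and folds describe or rank peaks within a list.

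The comparisons used the 16229 adriamycin and 7043 untreated peaks on autosomes and sex chromosomes, and left out 142 and 126 on other contigs or the mitochondrial genome. The lists give no read totals. Fragments at a summit were recovered from fold and −log10 p with a pseudocount of 1 and a Poisson tail, to within 0.001, for 99.9% of peaks in each list and for all 29 peaks used here. The genome-wide background was 1.03 fragments with adriamycin and 1.19 untreated. The recovery and the placing of summits were tested on simulated data. No input profile was used.

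Gene positions, starts and promoter letters came from RefSeq tables of GRCm38.p6. Overlap meant at least 1 bp. Intervals are 95% intervals and cover counting error only. Members, gene lists and named-gene rules (all members, and every list gene with a gene-end peak) were chosen with earlier results of these data known. A gene of the recombination list was left out of it after the counts were known, for a reason unrelated to its values, and is not reported here. The list's counts cover the remaining genes. The lists hold no expression values, so the cell type was not checked against markers. Alternatives were other thresholds, windows, limits, overlaps and equal list lengths. Python 3.11.15, numpy 2.4.6, pandas 2.3.3, scipy 1.17.1 and matplotlib 3.10.9 were used.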

Additional observations from a re-analysis of the deposited data

How the results depend on the processing

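No paired analysis was possible because each group had 1 library, and for the same reason no replicate could be left out. With a q of at most 1e-05, genes of the list with a gene-end peak numbered 1 with adriamycin and 0 untreated (3 and 2 as reported), beside 7.12% and 2.10% of all genes (16.0% and 5.78% as reported), genes with an untreated peak within 50 kb 3 (6 as reported), and the other pathway genes with a gene-end peak 1 with adriamycin and 0 untreated (3 and 1 as reported). With a fold of at least 5 the list had 1 and 0, beside 6.94% and 2.14% of all genes. With lists of equal length the list had 0 with adriamycin at gene ends and 5 within 50 kb (8 as reported), and the pathway 1, beside 5.73% of all genes with a gene-end peak with adriamycin and 5.78% untreated. Pathway counts with adriamycin and untreated were 7 and 5 with a window of 2500 bp and 10 and 6 with 5000 bp, and 2 untreated where any base of the peak decided. Shares of all genes are not given for these settings, nor for the 50 kb counts under the stricter q and equal list lengths. Those counts therefore have no like background here. The other counts for the list and the pathway stayed within 1.5 times under the alternatives run, including a window of 500 bp, the start alone, limits of 20000 and 100000 bp, stricter overlaps, and leaving out peaks over high local background. The start peaks held 8 to 14 fragments, where the median summit held 14 in each list. At a like local background the lowest summits of the other list held 7 to 9 fragments, and levels below those are not known.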
